A study of Homo sapiens with 21 samples.

Results

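The genes described here encode the kinetochore, the centromere and the spindle checkpoint. They are 41 genes picked by symbol out of 34021 gene rows of an RNA sequencing table, and all 41 were found. H1975, the cell line used, is an established line from a human lung adenocarcinoma with a mutated EGFR gene. It was profiled in 3 groups of 3 libraries, all labelled as 8 days. The group OC had 500 nM osimertinib, which binds mutant EGFR covalently, and overexpressed cIGF1R, a circular RNA of the IGF1R gene. OL+EV had 500 nM osimertinib with 500 nM linsitinib, an inhibitor of the IGF1 and insulin receptor kinases, and carried EV, an abbreviation without an explanation in the labels. DMSO+EV had the vehicle DMSO and EV. Osimertinib was thus shared by OC and OL+EV, which differ from each other both in linsitinib and in cIGF1R, and osimertinib with EV alone is not among the groups analysed here. H1975 is 1 line, and separate cultures for the libraries of a group are not stated, so each p-value rests on a spread between libraries that may be technical only.

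A kinetochore is the protein structure that joins each chromosome to the microtubules of the spindle. It is built in layers on the centromere, where the histone variant CENPA replaces histone H3 in part of the nucleosomes. An inner layer, the constitutive centromere-associated network (CCAN), stays on the centromere through the cell cycle, and an outer layer, the KMN network, grips microtubules during mitosis. The spindle assembly checkpoint reads unattached kinetochores and holds back the anaphase-promoting complex (APC/C), and the chromosomal passenger complex corrects faulty attachments. The messages of many outer kinetochore, checkpoint and passenger genes peak in G2 and M phase, whereas the CCAN proteins are needed at all times. The CCAN class thus rests on its proteins and not on the timing of its messages. By these known roles the 41 genes were put into 11 constitutive CCAN genes, 23 genes induced in G2 and M, and 7 others with less cell-cycle regulation (MIS18A, DSN1, NSL1, PMF1, MIS12, BUB3 and MAD1L1).

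The values are treated as FPKM, fragments counted per length of gene and per size of library, a unit that the file does not name and that was read from its values. Library totals ran from 338034 to 381311 FPKM in OC, from 423319 to 432563 in OL+EV and from 429553 to 474156 in DMSO+EV, and the number of reads behind them is unknown. Genes of the mitochondrial genome took 6.08% to 7.28% of the total in OC, 20.4% to 25.6% in OL+EV and 20.3% to 30.4% in DMSO+EV. DMSO+EV replicate 2 stood apart on short noncoding RNAs of RNA polymerase III, with 443 FPKM of RN7SL1 against 46.4 in replicate 1 and 36.1 in replicate 3, and so did OC replicate 1, with 53.2 against 3.16 in replicate 2 and 6.37 in replicate 3. Of 9 genes that mark lung epithelial cells 7 were tested, of which 3 rose and 1 fell in OC and 2 rose and 0 fell in OL+EV (limma adjusted p under 0.05). Their sum was led by keratins and ran from 12440 to 15202 FPKM in OC, from 13231 to 14406 in OL+EV and from 11203 to 12464 in DMSO+EV, while the lung lineage factor NKX2-1 and the surfactant gene SFTPB were under 0.1 FPKM on average in every group. The 5 leukocyte genes summed to 2.27 to 4.25 FPKM in OC, 1.18 to 2.25 in OL+EV and 1.44 to 1.99 in DMSO+EV, mostly CD14, with PTPRC at 0.0117, 0.0146 and 0.0104 on average in that order. The 5 fibroblast genes found of 6 summed to 5.60 to 6.10 FPKM in OC, 3.35 to 3.71 in OL+EV and 3.38 to 3.75 in DMSO+EV, mostly COL1A1, with COL3A1 at 0, 0.00595 and 0.0116. The 4 endothelial genes found of 5 summed to 0.914 to 0.955 FPKM in OC, 0.135 to 0.268 in OL+EV and 3.57 to 4.08 in DMSO+EV, mostly CDH5, with PECAM1 at 0.255, 0.0303 and 0.347. The part of these markers in the results was not tested. The labels name RNase R, which degrades linear RNA, in 1 protocol for all samples, and its use in these libraries is not settled.

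Summed over the 41 genes, the level was 98.4 ± 10.3 FPKM in OC, 99.5 ± 2.00 in OL+EV and 657 ± 6.87 in DMSO+EV (SD, n = 3), so that OC held 15.0% and OL+EV 15.1% of the DMSO+EV sum. The classes did not share this loss equally. The 23 genes induced in G2 and M summed to 29.9 ± 1.88 FPKM in OC, 24.6 ± 0.631 in OL+EV and 489 ± 12.8 in DMSO+EV. For the 11 CCAN genes the sums were 11.3 ± 1.25 in OC, 12.7 ± 0.955 in OL+EV and 79.1 ± 4.42 in DMSO+EV. The 7 others summed to 57.3 ± 7.53 in OC, 62.3 ± 0.927 in OL+EV and 89.1 ± 6.75 in DMSO+EV. In bulk RNA, fewer cells in mitosis and less message per cell cannot be told apart.

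**Figure D1:**
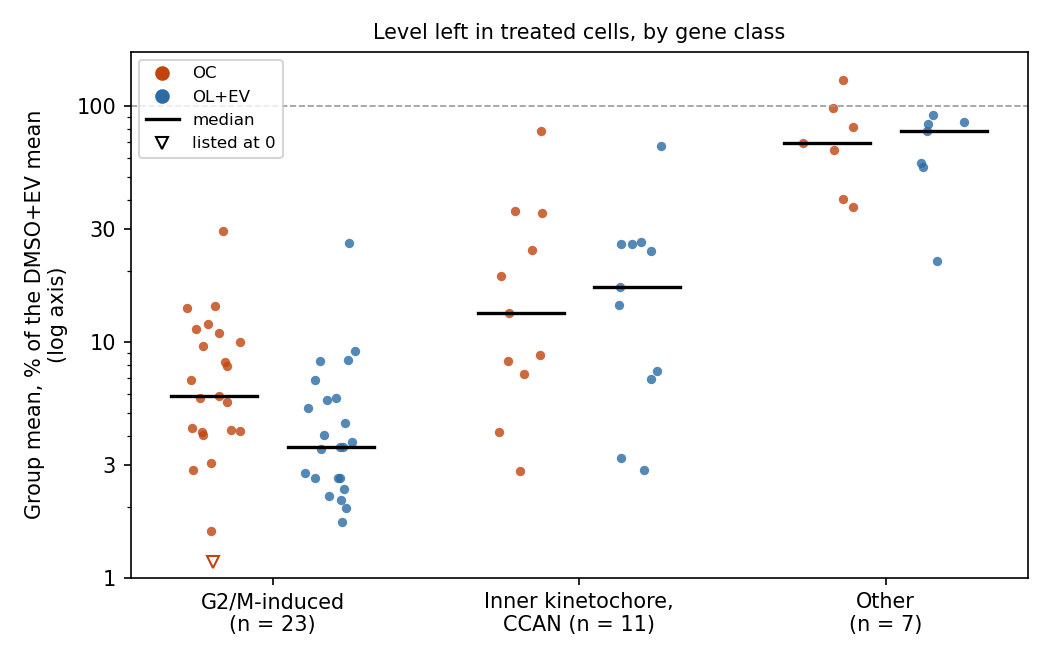
Points give the level of each gene as a percent of its DMSO+EV mean (vertical axis, log scale), by class, in OC and in OL+EV, with the class median as a line and an open triangle for SPC25, listed at 0 in OC. The medians are 5.91% in OC and 3.60% in OL+EV for genes induced in G2 and M, 13.2% and 17.1% for CCAN genes, and 69.9% and 78.2% for the others.

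Per gene, the median level relative to the DMSO+EV mean was 5.91% in OC and 3.60% in OL+EV for the genes induced in G2 and M, 13.2% and 17.1% for the CCAN genes, and 69.9% and 78.2% for the 7 others. In OC 17 of the 23 induced genes, 5 of the 11 CCAN genes and 0 of the 7 others stood under 10% of the DMSO+EV mean. In OL+EV the counts under 10% were 22 of 23, 4 of 11 and 0 of 7. The induced gene above 10% in OL+EV was INCENP, at 26.3%. No induced gene stood above 50% in OC or OL+EV. CENPQ, at 78.4% in OC, was the CCAN gene above 50% there, and CENPP, at 67.3%, the one in OL+EV. The classes therefore overlap in part, with CENPI, CENPK, CENPM and CENPU among the CCAN genes as depleted as the induced ones.

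**Figure D2:**
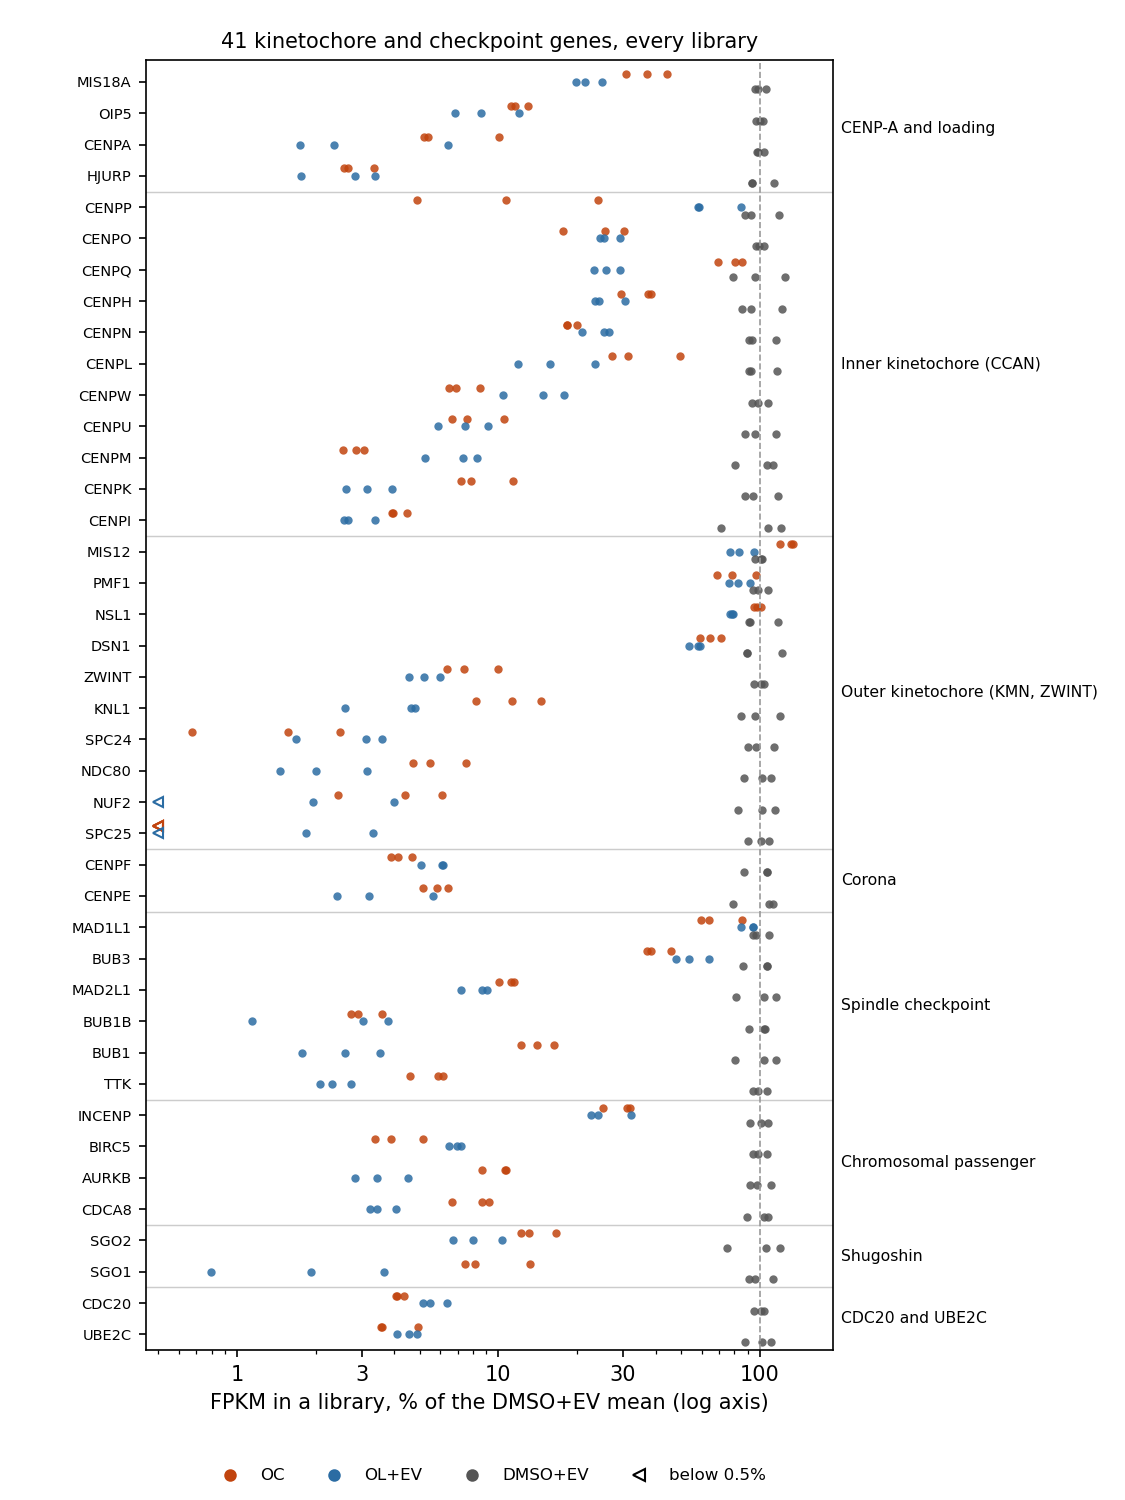
Each row is a gene, grouped by role, and each point a library of OC, OL+EV or DMSO+EV; the horizontal axis (log scale) gives its FPKM as a percent of the gene's DMSO+EV mean, and open triangles mark libraries below 0.5%. MIS12 is the gene whose 3 OC libraries all lie to the right of its DMSO+EV libraries.

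The comparison of OC with DMSO+EV asks how cells under osimertinib with cIGF1R differ from vehicle cells. Of the 41 genes 38 fell, 1 rose and 2 did not pass (limma on log2(FPKM + 1), Benjamini-Hochberg adjusted p under 0.05 over 13775 genes), 18 of those that fell having been tested through DMSO+EV alone, where 35.8% of all genes tested fell and 33.1% rose. The gene that rose was MIS12, and those that did not pass were CENPQ (adjusted p = 0.133) and NSL1 (adjusted p = 0.902, limma). All 3 OC libraries lay below all 3 DMSO+EV libraries in 37 of the 41 genes, against 36.5% of all genes tested, and above them in 1, against 33.3%. The median log2 fold change was -2.14 over the 41 genes and -0.03 over all genes tested. By class it was -1.83 for the CCAN genes, -2.76 for the induced genes and -0.47 for the others.

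In the comparison of OL+EV with DMSO+EV, which asks the same of osimertinib with linsitinib, 37 of the 41 genes fell, 0 rose and 4 did not pass (limma adjusted p under 0.05), with the same 18 among those that fell, where 23.5% of all genes tested fell and 29% rose. The 4 were PMF1, MIS12, NSL1 and MAD1L1, with limma adjusted p-values of 0.0986, 0.113, 0.125 and 0.407. All 3 OL+EV libraries lay below all 3 DMSO+EV libraries in 41 of 41 genes, against 27.6% of all genes tested, and above them in 0, against 34.3%. Here the median log2 fold change was -2.20 over the 41 genes and 0.05 over all genes. It was -1.66 for the CCAN genes, -3.06 for the induced genes and -0.25 for the others. Both comparisons use the same 3 DMSO+EV libraries, so their results are not independent of each other.

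Of the 41 genes 18 reached 1 FPKM in the 3 DMSO+EV libraries and in no other library: CENPA, HJURP, OIP5, CENPI, CENPK, CENPM, CENPU, NDC80, NUF2, SPC24, SPC25, KNL1, CENPE, BUB1B, MAD2L1, TTK, SGO1 and SGO2. They entered the test through DMSO+EV alone, where they are high, and so had to differ. They are 14 of the 23 induced genes and 4 of the 11 CCAN genes, all of them are within the counts and medians above, and their folds and p-values are descriptions. Of the 23 genes that reached 1 FPKM in some treated library, 20 fell and 1 rose in OC, against 34.6% and 33.8% of the 13520 genes of that kind in the table, and 19 fell and 0 rose in OL+EV, against 22.1% and 29.6% (limma adjusted p under 0.05). By class 9 of 9 induced genes, 6 of 7 CCAN genes and 5 of 7 others among them fell in OC, and 9 of 9, 7 of 7 and 3 of 7 in OL+EV. Among the 23, CENPL, CENPQ, MIS18A, NSL1, BUB1 and CDCA8 reached 1 FPKM in no OL+EV library, and CENPP in no OC library. Where these genes fell in that group, the fall is a description too. The fold changes of the 18 genes tested through DMSO+EV alone are held down by the pseudocount of 1 FPKM. With a pseudocount of 0.1 the median of the induced genes was -3.71 in OC and -4.45 in OL+EV, and that of the CCAN genes -2.61 in OC and -2.33 in OL+EV. With 5 it was -1.35 and -1.46 for the induced genes and -0.78 and -0.79 for the CCAN genes, in the same order of groups.

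The centromeric histone and its loading factors come first in the order of assembly. CENPA (chr2:26786056-26794589, GRCh38.p14, RefSeq), the histone variant that marks centromeres, had 0.476, 0.491 and 0.923 FPKM in OC, 0.214, 0.584 and 0.159 in OL+EV, and 8.92, 9.49 and 8.98 in DMSO+EV. The treated libraries lay far below the DMSO+EV libraries and overlapped with each other. CENPA fell by 2.65 on the log2 scale in OC (SE 0.14, limma adjusted p = 1.28e-09) and by 2.95 in OL+EV (SE 0.14, limma adjusted p = 1.25e-09). HJURP, the chaperone that deposits CENPA, had 0.431, 0.562 and 0.445 FPKM in OC, 0.294, 0.474 and 0.564 in OL+EV, and 19.0, 15.6 and 15.7 in DMSO+EV. It had the largest fall of these genes in either treated group, by 3.58 in OC and 3.62 in OL+EV on the log2 scale (limma adjusted p = 7.35e-12 and 2.65e-11). CENPA, HJURP and OIP5 were tested through DMSO+EV alone, so their folds and p-values are descriptions. OIP5 and MIS18A encode subunits of the Mis18 complex, which licenses the centromere for new CENPA. OIP5 averaged 0.575 ± 0.0456 FPKM in OC, 0.440 ± 0.127 in OL+EV and 4.82 ± 0.148 in DMSO+EV. MIS18A fell least of the 4, with 1.07, 1.29 and 1.54 FPKM in OC, 0.745, 0.865 and 0.686 in OL+EV, and 3.42, 3.34 and 3.67 in DMSO+EV. No MIS18A library of a treated group reached the DMSO+EV range, and the log2 fold change was -0.96 in OC and -1.34 in OL+EV (SE 0.10 each, limma adjusted p = 1.91e-06 and 1.84e-07). MIS18A was under 1 FPKM in every OL+EV library, so its fall there is a description too.

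Among the CCAN genes the spread between members was wide. CENPW, which pairs with CENPT in a histone-fold module, had 1.61, 1.51 and 1.99 FPKM in OC, 3.45, 4.16 and 2.44 in OL+EV, and 25.2, 21.8 and 22.9 in DMSO+EV. The 3 groups did not overlap, with OC lowest. CENPW fell by 3.17 in OC (SE 0.14, limma adjusted p = 2.00e-10) and by 2.50 in OL+EV (SE 0.14, limma adjusted p = 6.65e-09) on the log2 scale. CENPM, of the CENPH, CENPI, CENPK and CENPM module, had 0.324, 0.288 and 0.349 FPKM in OC, 0.832, 0.940 and 0.594 in OL+EV, and 12.1, 12.8 and 9.16 in DMSO+EV. It too was lowest in OC without overlap, and it fell by 3.21 in OC and 2.78 in OL+EV on the log2 scale (limma adjusted p = 6.71e-11 and 9.39e-10), keeping 2.82% and 6.95% of the DMSO+EV mean. CENPM was tested through DMSO+EV alone, so its folds and p-values are descriptions. The module did not move as a block. CENPH kept 35.1% of the DMSO+EV mean in OC and 26.0% in OL+EV, CENPI 4.12% and 2.86%, and CENPK 8.82% and 3.22%, in the same order.

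CENPL and CENPN, which form the module that reads the CENPA nucleosome, had means of 0.902 ± 0.296 and 1.79 ± 0.0968 FPKM in OC, 0.428 ± 0.148 and 2.29 ± 0.285 in OL+EV, and 2.51 ± 0.349 and 9.45 ± 1.28 in DMSO+EV. Both fell in both treated groups, CENPL by 0.89 and CENPN by 1.90 in OC, and CENPL by 1.30 and CENPN by 1.66 in OL+EV (log2 scale, limma adjusted p at most 3.46e-05). No OL+EV library of CENPL reached 1 FPKM, so its fall there is a description. CENPO, CENPP, CENPQ and CENPU belong to a further module that supports chromosome alignment. CENPU averaged 0.630 ± 0.153 FPKM in OC, 0.572 ± 0.124 in OL+EV and 7.64 ± 1.08 in DMSO+EV, and CENPO 1.49 ± 0.387, 1.61 ± 0.151 and 6.10 ± 0.220 in the same order.

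CENPP and CENPQ went apart. CENPQ had 1.12, 1.31 and 1.39 FPKM in OC, 0.421, 0.378 and 0.477 in OL+EV, and 1.56, 1.29 and 2.04 in DMSO+EV. The OC libraries overlapped with DMSO+EV and lay above every OL+EV library. On the log2 scale CENPQ differed from DMSO+EV by -0.20 in OC (SE 0.11, limma adjusted p = 0.133) and fell by 0.87 in OL+EV (SE 0.11, limma adjusted p = 2.62e-05). No OL+EV library of CENPQ reached 1 FPKM, so its fall there is a description. CENPP had 0.0866, 0.425 and 0.189 FPKM in OC, 1.04, 1.03 and 1.51 in OL+EV, and 2.11, 1.65 and 1.56 in DMSO+EV. OC lay below OL+EV, and the highest OL+EV library lay just below the lowest DMSO+EV library. CENPP fell by 1.17 in OC (SE 0.13, limma adjusted p = 2.98e-06) and by 0.34 in OL+EV (SE 0.13, limma adjusted p = 0.0421). No OC library of CENPP reached 1 FPKM, so its fall in OC is a description. The OL+EV call on CENPP was lost in 9 of 16 alternatives, among them without DMSO+EV replicate 1 or 2, without OC replicate 3 and without OL+EV replicate 1 or 2 (limma adjusted p from 0.0201 to 0.179 over the 16). The CENPQ call in OC appeared without DMSO+EV replicate 2 (limma adjusted p = 0.0426, range over 16 alternatives 0.0426 to 0.462). The CENPP gene overlaps IPPK, ECM2 and other genes in RefSeq, and how shared reads were counted is not stated.

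In the outer kinetochore, the 4 genes of the NDC80 complex, the main microtubule contact, all fell. NDC80 had 0.463, 0.539 and 0.735 FPKM in OC, 0.197, 0.144 and 0.309 in OL+EV, and 9.98, 8.54 and 10.9 in DMSO+EV. NUF2 averaged 0.287 ± 0.122 in OC and 6.68 ± 1.08 in DMSO+EV, and its OL+EV libraries had 0.266, 0.131 and a listed 0. SPC24 averaged 0.128 ± 0.0729 in OC, 0.226 ± 0.0802 in OL+EV and 8.11 ± 0.956 in DMSO+EV. SPC25 was listed at 0 in the 3 OC libraries, at 0, 0.0715 and 0.129 in OL+EV, and at 4.23, 3.50 and 3.94 in DMSO+EV. The NDC80 complex was near the floor of the table in both treated groups, and its 4 genes were tested through DMSO+EV alone. KNL1, the scaffold that BUB proteins dock on, averaged 0.162 ± 0.0451 FPKM in OC, 0.0575 ± 0.0176 in OL+EV and 1.43 ± 0.254 in DMSO+EV. ZWINT, which binds KNL1 and recruits the RZZ complex, had 2.89, 2.48 and 3.89 FPKM in OC, 2.33, 1.78 and 2.03 in OL+EV, and 37.2, 39.4 and 40.5 in DMSO+EV. ZWINT fell by 3.30 in OC and 3.72 in OL+EV on the log2 scale (SE 0.12 each, limma adjusted p = 4.64e-11 and 4.85e-11). It kept 7.92% of the DMSO+EV mean in OC and 5.25% in OL+EV, more than any of the 4 NDC80 complex genes in either group.

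The 4 genes of the MIS12 complex, which joins the CCAN to NDC80 and KNL1, kept between 57.1% and 128% of the DMSO+EV mean in the treated groups. MIS12 itself had 5.36, 5.87 and 5.98 FPKM in OC, 3.43, 4.26 and 3.73 in OL+EV, and 4.31, 4.52 and 4.58 in DMSO+EV. The OC libraries lay above all DMSO+EV libraries and the OL+EV libraries below them. The MIS12 gene overlaps DERL2 in RefSeq, and how shared reads were counted is not stated. MIS12 rose by 0.30 in OC (SE 0.10, limma adjusted p = 0.0127), while in OL+EV the difference was -0.19 (SE 0.10, limma adjusted p = 0.113, and 0.0359 under median-of-ratios rescaling, with a range of 0.0359 to 0.345 over 17 alternatives). DSN1 had 2.79, 3.07 and 2.54 FPKM in OC, 2.51, 2.55 and 2.32 in OL+EV, and 3.86, 3.84 and 5.22 in DMSO+EV. It fell without overlap, by 0.47 in OC and 0.61 in OL+EV (SE 0.11 each, limma adjusted p = 0.00219 and 0.000552). NSL1 was at 1.23, 1.18 and 1.15 FPKM in OC, 0.933, 0.951 and 0.961 in OL+EV, and 1.11, 1.11 and 1.42 in DMSO+EV, and passed the test in neither comparison. PMF1 had 21.2, 24.1 and 29.9 FPKM in OC, 23.6, 25.5 and 28.3 in OL+EV, and 29.1, 33.1 and 30.2 in DMSO+EV. PMF1 in OC overlapped with DMSO+EV, and its fall by 0.30 (SE 0.12, limma adjusted p = 0.0400) was lost in 8 of 17 alternatives, among them without DMSO+EV replicate 2 or 3, without OC replicate 1 or 2 and without OL+EV replicate 2 (adjusted p from 0.00289 to 0.192 over the 17, limma). In OL+EV, PMF1 passed without OC replicate 3 and in 2 other alternatives (limma adjusted p from 0.0343 to 0.283 over 17). PMF1 shares its whole span with the read-through gene PMF1-BGLAP, which averaged 0.983 ± 0.503 FPKM in OC, 1.03 ± 0.464 in OL+EV and 0.952 ± 0.808 in DMSO+EV.

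On the corona, the outermost layer of unattached kinetochores, CENPF had 1.21, 1.07 and 1.01 FPKM in OC, 1.31, 1.59 and 1.57 in OL+EV, and 27.6, 22.6 and 27.6 in DMSO+EV. CENPE, the kinesin that carries chromosomes to the spindle equator, averaged 0.276 ± 0.0294 FPKM in OC, 0.179 ± 0.0802 in OL+EV and 4.76 ± 0.876 in DMSO+EV. Both corona genes lay far below DMSO+EV in every treated library. CENPE was tested through DMSO+EV alone, so its folds and p-values are descriptions. CENPF fell by 3.68 in OC and 3.43 in OL+EV, and CENPE by 2.16 in OC and 2.28 in OL+EV (log2 scale, limma adjusted p at most 4.10e-09).

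Of the 6 spindle checkpoint genes 6 fell in OC and 5 in OL+EV, against 35.8% and 23.5% of all genes tested (limma adjusted p under 0.05). MAD1L1 did not pass in OL+EV. TTK, the kinase MPS1 that starts checkpoint signalling, had 0.456, 0.584 and 0.611 FPKM in OC, 0.230, 0.207 and 0.272 in OL+EV, and 9.79, 9.37 and 10.6 in DMSO+EV. BUB1B, which encodes the APC/C inhibitor BUBR1, averaged 0.289 ± 0.0419 in OC, 0.250 ± 0.128 in OL+EV and 9.41 ± 0.704 in DMSO+EV. MAD2L1, whose product MAD2 binds CDC20 in the inhibitor complex, had means of 0.333 ± 0.0223 in OC, 0.254 ± 0.0298 in OL+EV and 3.05 ± 0.521 in DMSO+EV. These 3 and BUB1 fell in both comparisons without overlap (limma adjusted p at most 1.91e-08 in OC and 2.98e-08 in OL+EV). TTK, BUB1B and MAD2L1 were tested through DMSO+EV alone, so their p-values are descriptions. BUB1, the kinase that marks centromeric histone H2A, had 1.87, 1.62 and 1.41 FPKM in OC, 0.299, 0.204 and 0.407 in OL+EV, and 9.29, 11.99 and 13.2 in DMSO+EV. It fell by 2.24 in OC (SE 0.13, limma adjusted p = 3.61e-09) and by 3.25 in OL+EV (SE 0.13, limma adjusted p = 2.59e-10). No OL+EV library of BUB1 reached 1 FPKM, so its fall there is a description too.

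BUB3, a partner of BUB1 and BUBR1, had 13.1, 12.7 and 15.7 FPKM in OC, 21.9, 18.4 and 16.4 in OL+EV, and 29.7, 36.7 and 36.6 in DMSO+EV. The groups did not overlap, with OC lowest. BUB3 fell by 1.25 in OC (SE 0.12, limma adjusted p = 9.88e-07) and by 0.83 in OL+EV (SE 0.12, limma adjusted p = 9.04e-05). MAD1L1, whose product MAD1 anchors MAD2 at kinetochores, had 6.74, 6.29 and 9.03 FPKM in OC, 9.94, 9.92 and 8.90 in OL+EV, and 9.96, 11.4 and 10.2 in DMSO+EV. All MAD1L1 libraries stayed above 6 FPKM. MAD1L1 fell by 0.48 in OC (SE 0.12, limma adjusted p = 0.00276) and differed by -0.12 in OL+EV (SE 0.12, limma adjusted p = 0.407). BUB1B overlaps the read-through gene BUB1B-PAK6 in RefSeq, so reads of the pair may be shared between them.

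The chromosomal passenger complex holds the kinase Aurora B, its scaffold INCENP, survivin (BIRC5) and borealin (CDCA8). AURKB (chr17:8204731-8210575) had 4.26, 5.22 and 5.26 FPKM in OC, 1.69, 2.23 and 1.40 in OL+EV, and 54.5, 48.3 and 45.1 in DMSO+EV. BIRC5 had 0.885, 0.768 and 1.17 FPKM in OC, 1.57, 1.47 and 1.63 in OL+EV, and 21.5, 22.4 and 24.2 in DMSO+EV. Every treated library lay below every DMSO+EV library for both genes, but OC was above OL+EV for AURKB and below it for BIRC5. AURKB fell by 3.09 in OC (SE 0.12, limma adjusted p = 8.92e-11), and BIRC5 by 3.61 in OC and 3.21 in OL+EV (SE 0.10 each, limma adjusted p = 3.21e-12 and 3.56e-11). CDCA8 had 1.11, 1.19 and 0.858 FPKM in OC, 0.417, 0.525 and 0.441 in OL+EV, and 11.5, 13.8 and 13.3 in DMSO+EV. INCENP had 3.16, 3.25 and 2.57 FPKM in OC, 3.30, 2.45 and 2.30 in OL+EV, and 9.34, 10.9 and 10.3 in DMSO+EV. Of the 4 subunits INCENP fell least, by 1.49 in OC and 1.61 in OL+EV (SE 0.12 each, limma adjusted p = 1.12e-07 and 1.35e-07).

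The proportions between the messages of subunits differed between groups. The ratio of AURKB to INCENP, in FPKM within each library, was 1.35, 1.61 and 2.04 in OC, 0.513, 0.910 and 0.606 in OL+EV, and 5.84, 4.42 and 4.37 in DMSO+EV. The ratio of CDCA8 to INCENP averaged 0.351 ± 0.0170 in OC, 0.177 ± 0.0455 in OL+EV and 1.26 ± 0.0317 in DMSO+EV. That of AURKB to BIRC5 was highest in OC, at 5.36 ± 1.25, with 1.15 ± 0.337 in OL+EV and 2.19 ± 0.338 in DMSO+EV. BUB1 to BUB1B averaged 5.65 ± 0.213 in OC, 1.55 ± 1.09 in OL+EV and 1.23 ± 0.249 in DMSO+EV (SD, n = 3). Neither ratio to INCENP overlapped between groups, while the ratio of BUB1 to BUB1B was high in OC and overlapped between OL+EV and DMSO+EV. These ratios were chosen after the values were seen and were not tested. BUB1B was near the floor, with 0.337, 0.274 and 0.257 FPKM in OC and 0.108, 0.286 and 0.355 in OL+EV. Its overlapping gene BUB1B-PAK6 averaged 1.12 ± 1.67 FPKM in OC, 0.128 ± 0.161 in OL+EV and 1.72 ± 2.52 in DMSO+EV.

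Shugoshins guard the cohesin that holds sister centromeres together. SGO1 had 0.243, 0.149 and 0.136 FPKM in OC, 0.0671, 0.0351 and 0.0145 in OL+EV, and 2.06, 1.76 and 1.67 in DMSO+EV, and SGO2 averaged 0.547 ± 0.0898 in OC, 0.328 ± 0.0721 in OL+EV and 3.92 ± 0.894 in DMSO+EV. Both fell in both comparisons without overlap (limma adjusted p at most 8.62e-08). SGO1 and SGO2 were tested through DMSO+EV alone, so their p-values are descriptions. At the end of the pathway stand CDC20, the APC/C activator that the checkpoint captures, and UBE2C, an APC/C ubiquitin-conjugating enzyme. UBE2C had 4.98, 4.93 and 6.85 FPKM in OC, 6.77, 5.67 and 6.29 in OL+EV, and 153, 141 and 121 in DMSO+EV, the highest DMSO+EV level of the 41 genes. CDC20 (chr1:43358981-43363203) had 3.45, 3.71 and 3.48 FPKM in OC, 4.37, 5.42 and 4.66 in OL+EV, and 80.7, 88.3 and 85.8 in DMSO+EV. The DMSO+EV level exceeded every treated library of both genes by more than 10 times. UBE2C fell by 4.41 and CDC20 by 4.24 in OC (SE 0.12 and 0.09, limma adjusted p = 3.31e-12 and 2.48e-13), and CDC20 fell by 3.89 in OL+EV (SE 0.09, limma adjusted p = 1.14e-11). UBE2C and CDC20 have pseudogene copies, and OIP5 and SGO1 overlap antisense genes, and neither the handling of shared reads nor the use of strand is stated.

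**Figure D3:**
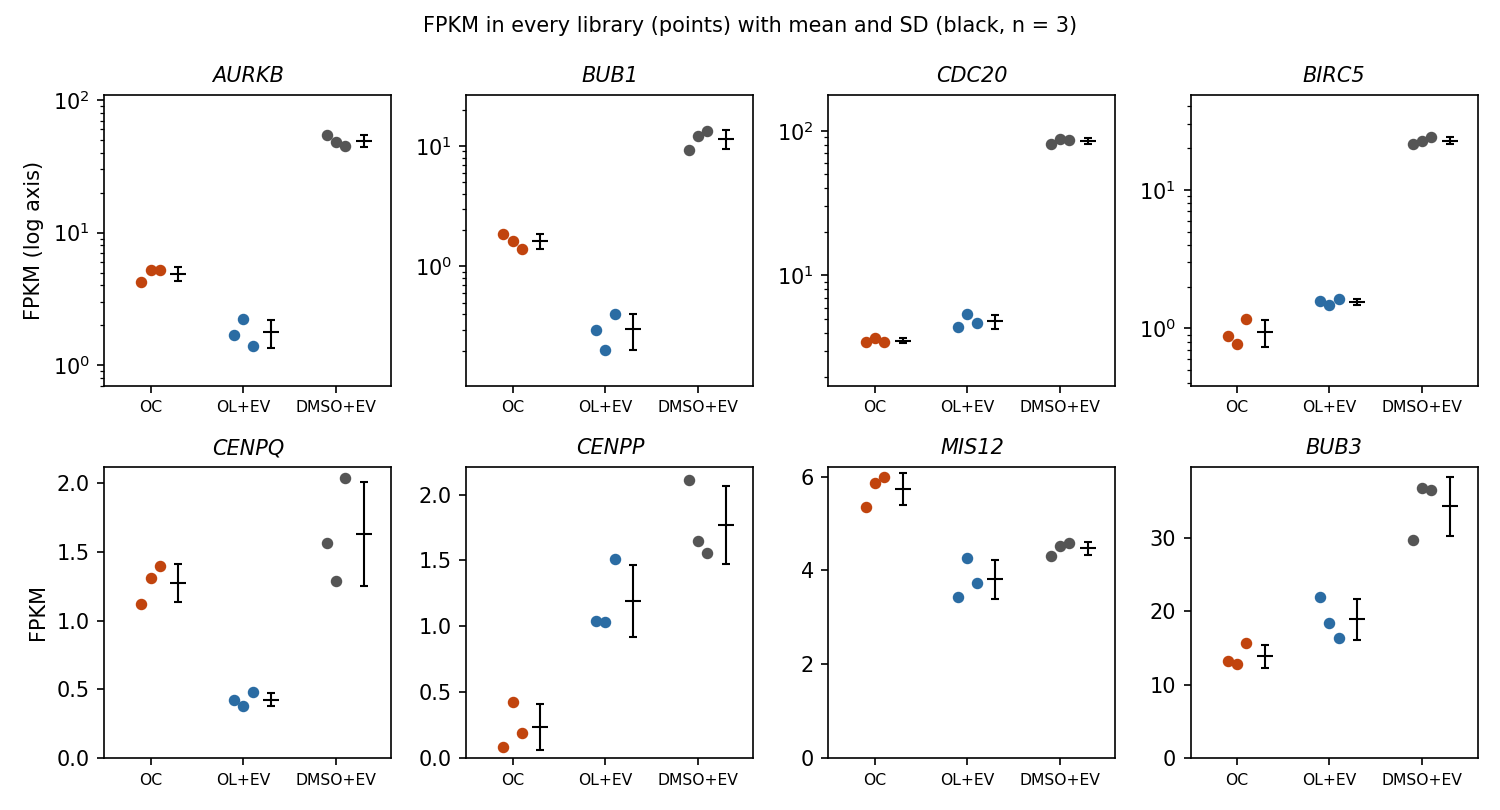
FPKM in each library (points) of OC, OL+EV and DMSO+EV with mean and SD in black (n = 3). The upper row, on a log axis, shows 4 induced genes that lie far below DMSO+EV in both treated groups. The lower row, on linear axes, shows CENPQ, CENPP, MIS12 and BUB3. OC and OL+EV differed from each other in every gene shown (limma adjusted p under 0.05).

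The direct comparison of OC with OL+EV asks where the treated groups differ, and here the genes did not move one way. Of the 41 genes 11 were higher and 7 lower in OC, and 23 did not pass (limma adjusted p under 0.05), where 25.9% of all genes tested were higher and 34.8% lower. The share that was higher was near that of all genes. Of the 23 genes that reached 1 FPKM in some treated library, 8 were higher and 6 lower (limma adjusted p under 0.05). Among the 13520 genes of that kind 26.2% were higher and 35.1% lower. Of the 18 genes tested through DMSO+EV alone, 3 were higher, 1 was lower and 14 did not pass. All 3 OC libraries lay above all 3 OL+EV libraries in 17 genes, against 29.6% of all genes tested, and below them in 8, against 38.4%. The median log2 fold change was 0.12 over the 41 genes and -0.09 over all genes tested. By class it was 0.05 for the CCAN genes, 0.13 for the induced genes and 0.13 for the others. Of the induced genes 6 were higher and 2 lower, of the CCAN genes 3 and 3, and of the others 2 and 2. Median-of-ratios rescaling moved the median of all genes by 0.12, and 54.88% of the called genes were then higher in OC, against 42.7% without it. It gave 14 of the 41 genes higher and 5 lower, with BUB3 and MAD1L1 no longer called, and CENPA, CENPH and NSL1 called.

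**Figure D4:**
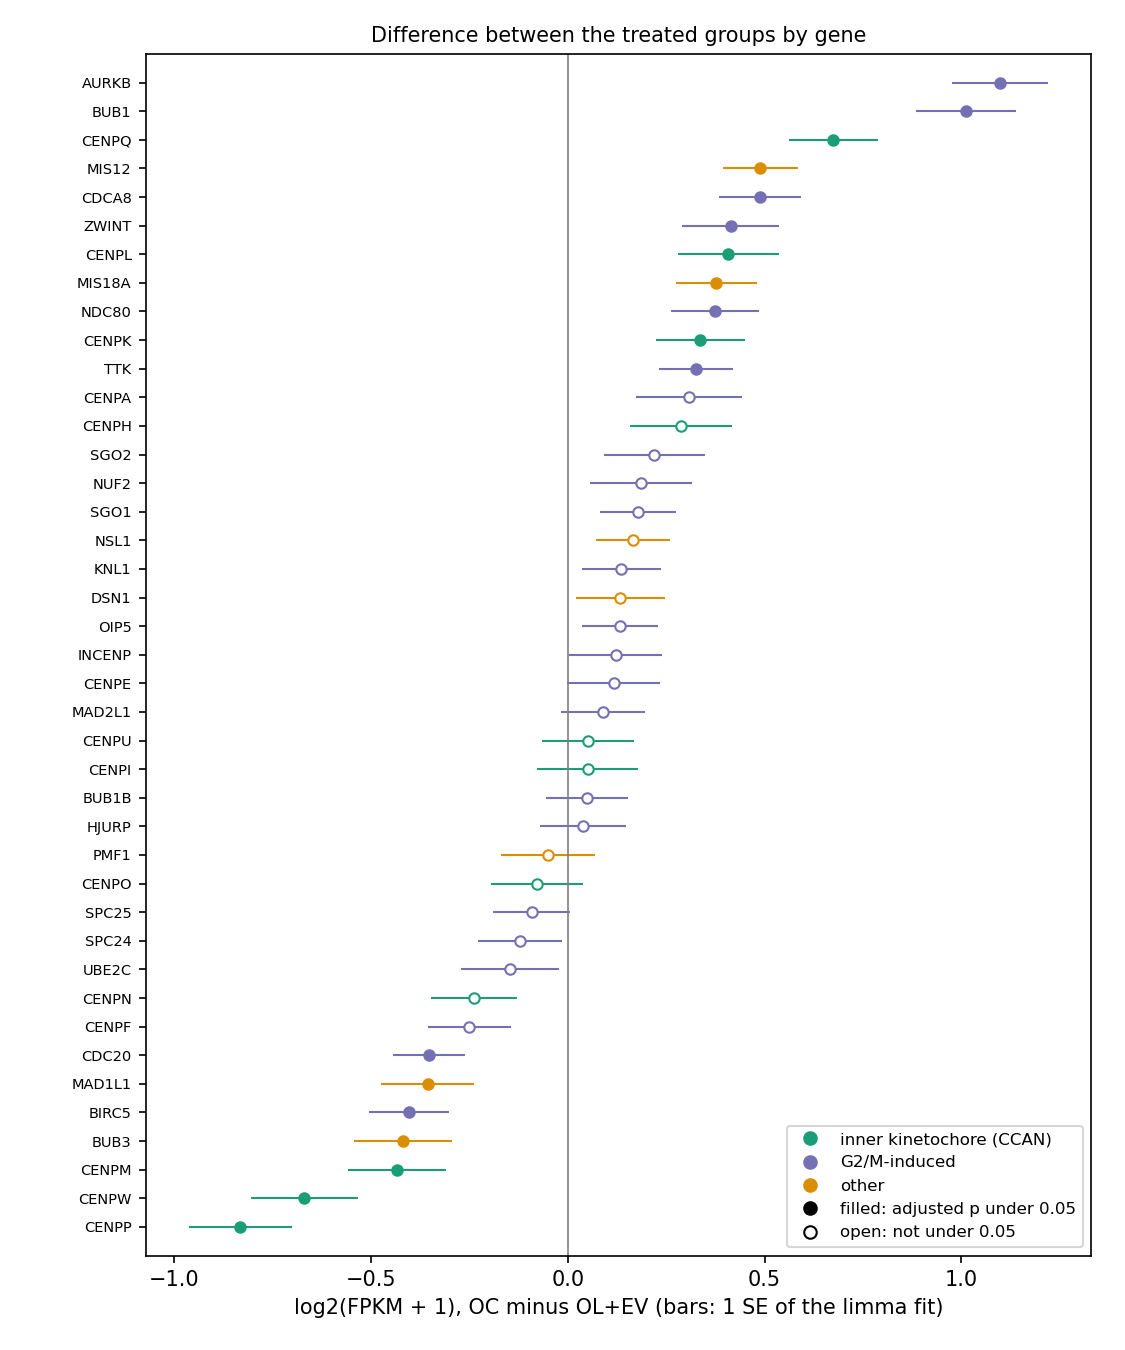
Points give the difference in log2(FPKM + 1), OC minus OL+EV, for each of the 41 genes in order of size, coloured by class, with bars of 1 SE of the limma fit. Filled points passed at an adjusted p under 0.05: 11 to the right of 0, led by AURKB at 1.10, and 7 to the left, led by CENPP at -0.83.

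AURKB and BUB1 had the largest differences in favour of OC. In FPKM the OC mean was 2.77 times the OL+EV mean for AURKB and 5.38 times for BUB1. AURKB differed by 1.10 on the log2 scale (SE 0.12, limma adjusted p = 6.24e-06) and BUB1 by 1.01 (SE 0.13, limma adjusted p = 1.75e-05), and both were called in all 17 alternatives. Their size depends on the pseudocount: with 5 it was 0.55 for AURKB and 0.32 for BUB1, and with 0.1 it was 1.44 and 2.12. CDCA8 (0.49), ZWINT (0.41), NDC80 (0.37) and TTK (0.33) completed the induced genes that were higher in OC. NDC80 and TTK were under 1 FPKM in every library of both groups, and lost their calls with a pseudocount of 5 (limma adjusted p = 0.152 and 0.120). With 0.1 KNL1, SGO1 and SGO2 were called higher as well (limma adjusted p = 0.0376, 0.00859 and 0.0351). BIRC5 (-0.40, SE 0.10, limma adjusted p = 0.00388) and CDC20 (-0.35, SE 0.09, limma adjusted p = 0.00486) were the induced genes that were lower in OC. ZWINT lost its call without OL+EV replicate 2 (limma adjusted p = 0.0508, range over 17 alternatives 0.00321 to 0.0508), and UBE2C, uncalled at -0.15, passed without OC replicate 3 (limma adjusted p = 0.0419, range over 17 alternatives 0.0419 to 0.871).

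Among the CCAN genes CENPQ was higher in OC, with a mean 3.00 times that of OL+EV and a log2 difference of 0.67 (SE 0.11, limma adjusted p = 0.000200). CENPP, CENPW and CENPM were lower, by -0.83, -0.67 and -0.43 (limma adjusted p = 0.000114, 0.000883 and 0.00833). With a pseudocount of 0.1 the difference was 1.39 for CENPQ and -2.06 for CENPP, and with 5 it was 0.21 and -0.24. The CENPM call was lost with 5, at -0.12 (limma adjusted p = 0.160). CENPK and CENPL were higher by 0.34 and 0.41 (limma adjusted p = 0.0194 and 0.0146). The CENPK call was lost with a pseudocount of 5 and without OC replicate 3 or OL+EV replicate 2, and the CENPL call without OC replicate 2 or OL+EV replicate 3 (limma adjusted p up to 0.178 for CENPK and 0.0774 for CENPL over 16 alternatives each). CENPH, uncalled at 0.29 (limma adjusted p = 0.0686), passed without DMSO+EV replicate 3, OC replicate 1 or OL+EV replicate 2, and CENPN, at -0.24 (limma adjusted p = 0.0757), passed without DMSO+EV replicate 3 or OL+EV replicate 1.

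Of the other class MIS12 (0.49, SE 0.10, limma adjusted p = 0.000641) and MIS18A (0.38, SE 0.10, limma adjusted p = 0.00615) were higher in OC, and BUB3 (-0.42, SE 0.12, limma adjusted p = 0.0104) and MAD1L1 (-0.36, SE 0.12, limma adjusted p = 0.0191) lower. MIS12 was called in all 17 alternatives. MAD1L1 overlapped between OC and OL+EV and was lost without OC replicate 1 or 2 and without OL+EV replicate 1 or 2 (limma adjusted p from 0.000913 to 0.125 over 17 alternatives). BUB3 was lost without OL+EV replicate 1 (limma adjusted p from 0.00468 to 0.0671 over 17 alternatives). CENPA, uncalled at 0.31 (limma adjusted p = 0.0646), passed without OL+EV replicate 2, and CENPF, at -0.25 (limma adjusted p = 0.0537), without DMSO+EV replicate 2 or OL+EV replicate 1.

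Promoter sequences from RefSeq (GRCh38.p14) were at hand for 32 of the 41 genes, from 250 bases before to 50 after each start. Short motifs of cell-cycle promoters were searched on both strands. The first was CCAAT, the box that NF-Y binds, which reads ATTGG on the other strand. The next was TTTGAA, the core of the element bound by the DREAM and MMB-FOXM1 complexes, with matches on the other strand counted too. The variant TTTAAA is also in capitals where it occurs. CCAAT was in 15 of 19 induced genes, 6 of 8 CCAN genes and 2 of 5 others, against 39.7% of 27305 genes in the table. TTTGAA was in 12 of 19, 2 of 8 and 0 of 5, against 18.2% of all genes. CCAAT together with TTTGAA or TTTAAA was in 10 of 19, 1 of 8 and 0 of 5, against 11.2%. A match is a description of letters, and these counts carry no test. The 140 bases before the start are shown for a few genes, chosen after their values were seen, whose change differs in size within each class, written on the strand of the gene with matches in capitals. They are CDC20 (chr1:43358841-43358980, plus strand), CDCA8 (chr1:37692376-37692515, plus), HJURP (chr2:233854536-233854675, minus) and INCENP (chr11:62123871-62124010, plus) of the induced genes, CENPK (chr5:65563169-65563308, minus) and CENPQ (chr6:49463230-49463369, plus) of the CCAN, and PMF1 (chr1:156212867-156213006, plus) and MIS12 (chr17:5486234-5486373, plus, the first of its starts) of the others.
CDC20: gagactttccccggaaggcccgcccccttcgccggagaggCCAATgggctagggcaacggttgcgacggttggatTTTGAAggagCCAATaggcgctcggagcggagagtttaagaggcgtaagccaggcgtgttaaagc
CDCA8: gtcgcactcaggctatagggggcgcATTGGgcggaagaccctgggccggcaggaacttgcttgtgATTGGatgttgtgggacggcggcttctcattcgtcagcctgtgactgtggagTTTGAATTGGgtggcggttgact
HJURP: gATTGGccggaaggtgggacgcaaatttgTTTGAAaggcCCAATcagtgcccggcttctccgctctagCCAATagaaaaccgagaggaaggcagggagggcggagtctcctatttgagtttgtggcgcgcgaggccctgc
INCENP: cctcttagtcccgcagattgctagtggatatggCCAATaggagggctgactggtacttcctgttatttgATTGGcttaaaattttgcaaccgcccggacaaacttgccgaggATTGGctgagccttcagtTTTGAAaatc
CENPK: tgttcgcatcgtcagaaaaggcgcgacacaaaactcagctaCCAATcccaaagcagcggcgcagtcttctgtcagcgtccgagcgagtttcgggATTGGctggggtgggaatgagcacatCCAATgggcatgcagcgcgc
CENPQ: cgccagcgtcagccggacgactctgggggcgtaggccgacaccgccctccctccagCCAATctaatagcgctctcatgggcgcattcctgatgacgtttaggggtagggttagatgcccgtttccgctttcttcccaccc
PMF1: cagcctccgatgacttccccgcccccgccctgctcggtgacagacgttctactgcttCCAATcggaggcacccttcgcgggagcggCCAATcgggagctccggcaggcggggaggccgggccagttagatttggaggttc
MIS12: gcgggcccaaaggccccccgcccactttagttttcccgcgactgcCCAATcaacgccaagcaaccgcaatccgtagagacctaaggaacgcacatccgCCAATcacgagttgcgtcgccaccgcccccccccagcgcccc
In these windows the 4 induced genes held both CCAAT and TTTGAA, and CENPK, CENPQ, PMF1 and MIS12 held CCAAT alone. The genes shown do not stand for their classes. Over the windows searched, BUB1, AURKB, OIP5, SPC24 and SGO1 of the induced genes held CCAAT alone. NDC80, NUF2 and BUB1B held TTTGAA alone, and CENPN of the CCAN genes held both. In CDCA8 the TTTGAA at -23 shares its last base with the ATTGG that follows. INCENP held the same pair of motifs as CDC20, and kept 29.4% of its DMSO+EV level in OC and 26.3% in OL+EV, where CDC20 kept 4.17% and 5.67%. Any link between motifs and levels was not tested.

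Other genes of the pathway were taken from lists by role, and their counts stand against all genes tested, of which 35.8% fell and 33.1% rose in OC, and 23.5% fell and 29% rose in OL+EV, with medians of -0.03 and 0.05. Of them 3 of the further kinetochore genes, 6 of the regulators and 3 of the transcription genes reached 1 FPKM in DMSO+EV alone and had to fall. Of 8 further CCAN and centromere genes, 7 fell and 1 rose in OC, and 4 fell and 1 rose in OL+EV (limma adjusted p under 0.05), with a median log2 fold change of -0.82 in OC and -0.38 in OL+EV. CENPV fell by 2.46 in OC and 1.73 in OL+EV, CENPX by 1.36 and 0.48 in the same order, and CENPT, the partner of CENPW, fell by 0.58 in OC and rose by 0.48 in OL+EV. CENPT averaged 13.8 FPKM in OC, 30.0 in OL+EV and 21.3 in DMSO+EV, and was 1.06 lower in OC than in OL+EV (limma adjusted p = 8.30e-06). Of 16 further kinetochore genes, 12 fell in OC and 12 in OL+EV, and 1 and 0 rose, with medians of -1.16 and -1.10. KIF2C, a microtubule-depolymerizing kinesin, stood at 3.23 FPKM in OC, 3.37 in OL+EV and 28.00 in DMSO+EV, and SPDL1, which brings dynein to kinetochores, at 1.72, 1.77 and 12.7.

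Among 17 checkpoint and mitotic regulators, 15 fell and 2 rose in OC, and 16 fell and 0 rose in OL+EV (limma adjusted p under 0.05), with a median log2 fold change of -2.79 in OC and -2.84 in OL+EV. CDK1, the kinase of mitotic entry, stood at 2.07 FPKM in OC, 1.24 in OL+EV and 49.6 in DMSO+EV, and its cyclin CCNB1 at 5.15, 3.80 and 63.6. In OC against OL+EV 8 of the 17 were higher and 1 lower, where 25.9% and 34.8% of all genes were, led by MASTL, the kinase that restrains the phosphatase PP2A in mitosis. MASTL stood at 7.29 FPKM in OC, 1.29 in OL+EV and 4.81 in DMSO+EV, a log2 difference of 1.87 between OC and OL+EV (limma adjusted p = 8.47e-09). Its OC level was above DMSO+EV by 0.51 and its OL+EV level below by 1.35. Of 17 APC/C subunits and partners, 10 fell and 0 rose in OC, and 8 fell and 2 rose in OL+EV, with medians of -0.38 and -0.28. The largest fall on this scale was that of UBE2S, an enzyme that extends ubiquitin chains, at 20.9 FPKM in OC, 35.6 in OL+EV and 183 in DMSO+EV.

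Of 12 cohesin genes tested, 4 fell and 6 rose in OC, and 4 fell and 1 rose in OL+EV (limma adjusted p under 0.05), and the share that fell in OC was near that of all genes. Their median log2 fold change was 0.22 in OC and -0.13 in OL+EV. CDCA5, which encodes the cohesin protector sororin, stood at 1.20 FPKM in OC, 0.961 in OL+EV and 17.9 in DMSO+EV, and ESCO1, a cohesin acetyltransferase, at 3.76, 1.62 and 1.50. Of 17 tested genes that control cell-cycle transcription, 11 fell and 5 rose in OC, and 11 fell and 4 rose in OL+EV, with medians of -0.49 and -0.45. MYBL2, the B-MYB subunit of MMB, stood at 2.03 FPKM in OC, 3.27 in OL+EV and 80.4 in DMSO+EV, and FOXM1 at 2.13, 2.24 and 22.9. A pair of genes of that list rose in OC and fell in OL+EV relative to DMSO+EV: CDKN1A, which encodes the CDK inhibitor p21, at 74.3 FPKM in OC, 24.2 in OL+EV and 29.9 in DMSO+EV, and LIN52, a subunit of the DREAM complex, at 11.96, 2.92 and 5.08. CDKN1A was higher in OC than in OL+EV by 1.58 and LIN52 by 1.73 on the log2 scale (limma adjusted p = 1.91e-08 and 7.47e-09).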

How the data were processed

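RNA-seq of H1975 gave 9 of the 21 samples, and the 12 of circular RNA are not analysed here. The authors deposited 1 table of fractional expression values, read here as FPKM from the values, since no header names the unit. The tools STAR, edgeR and Bowtie2 2.1.0 and the build hg38 are listed, without a role, per the submitters' processing notes. The sources used here do not give the counter, annotation or strand setting. Without a known depth no counting interval was possible. The labels' shared protocol names RNase R and 3 days, and the RNA-seq labels 8 days.

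The test was limma 3.58.1 (R 4.3.3) on log2(FPKM + 1), in 1 fit over 9 libraries with a mean-variance trend and robust variances, for 13775 genes with at least 1 FPKM in at least 3 libraries. P-values were adjusted by Benjamini-Hochberg over those genes, with a threshold of 0.05. Fold changes on this scale understate the change of low genes. This step was checked on simulated data. The genes, their classes and the other lists were chosen with earlier results of these data known. All 41 genes may be named, and values in every library are given per role for the called genes with the largest and smallest change and for those that depart from their role. Of the other lists, up to 3 called genes per comparison are named. Alternatives were pseudocounts of 0.1 and 5, no filter, a filter at 5 FPKM, median-of-ratios rescaling, equal totals without mitochondrial genes, a replicate block, fits to the compared groups alone, and leaving out each library in turn. Counts over the genes that reached 1 FPKM in some treated library were added after the data were seen. Positions and promoters are those of RefSeq, GRCh38.p14, in which 92.93% of the table's symbols were found, and Python 3.11.15 with matplotlib 3.10.9 drew the figures.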

Additional observations from a re-analysis of the deposited data

Results flagged for a closer look

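MIS12, a subunit of the complex that joins the inner to the outer kinetochore, stood out because its groups lay on opposite sides of the vehicle libraries. Its 3 OC libraries, at 5.36 to 5.98 FPKM, were all above the 3 DMSO+EV libraries, and its 3 OL+EV libraries, at 3.43 to 4.26 FPKM, were all below them, at 4.31 to 4.58 FPKM in DMSO+EV. The difference itself was tested by the comparison of OC with OL+EV, where it was 0.49 on the log2 scale (limma adjusted p = 0.000641). The difference between OL+EV and DMSO+EV did not pass on its own (limma adjusted p = 0.113). MIS12 shares 444 bases with the gene DERL2 in RefSeq. DERL2 averaged 5.67 ± 0.676 FPKM in OC, 4.71 ± 0.494 in OL+EV and 5.47 ± 0.493 in DMSO+EV. How shared reads were counted is not stated, and their part in the MIS12 values was not tested.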

How the results depend on the processing

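The counts of genes that fell came to 23 in OL+EV and 25 in OC with the filter at 5 FPKM, which left 26 of the 41 genes, and ran from 36 to 37 in OL+EV and from 37 to 38 in OC when 1 library was left out. The class medians moved with the pseudocount and with the filter at 5 FPKM. For OC against DMSO+EV the CCAN median was -2.61 with 0.1, -0.78 with 5, -2.15 with the filter at 5 FPKM and -1.81 with equal totals without mitochondrial genes, and -1.96 to -1.71 with 1 library left out. The induced genes gave -3.71, -1.35 and -3.01 under the first 3 of these, and -2.77 to -2.70. For OL+EV against DMSO+EV the CCAN median was -2.33, -0.79 and -2.06 under the same 3, and -1.72 to -1.56 with 1 library left out, and the induced genes gave -4.45, -1.46 and -3.23, and -3.12 to -2.98. For OC against OL+EV the CCAN median was 0.12 with 0.1 and turned to -0.16 with the filter at 5 FPKM, with -0.0231 to 0.0606 over the libraries left out, negative without OC replicate 3 and without OL+EV replicate 2. The induced genes gave 0.47 with 0.1, 0.036 with 5 and 0.18 under median-of-ratios rescaling, and 0.11 to 0.20 with 1 library left out. Leaving out 1 library gave 10 to 12 genes higher and 6 to 8 lower in OC, and the other alternatives gave 8 to 16 higher and 5 to 9 lower. Without a filter CENPK, CENPL, BUB3 and MAD1L1 lost their calls (limma adjusted p from 0.0507 to 0.0691).

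Uncalled differences changed sign in 6 genes. NSL1 in OC against DMSO+EV was 0.0153 under median-of-ratios rescaling, 0.0114 with equal totals without mitochondrial genes and -0.0470 to 0.0522 over the libraries left out, positive without DMSO+EV replicate 3. In OC against OL+EV, median-of-ratios rescaling gave 0.00768 for CENPO and 0.0858 for PMF1, and leaving out libraries gave -0.177 to 0.0486 for CENPO, positive without OC replicate 1, and -0.179 to 0.0581 for PMF1, positive without OC replicate 1 and, at 0.0160, without OL+EV replicate 3. CENPU was -0.0231 without OC replicate 3 and -0.00632 without OL+EV replicate 2, HJURP -0.0386 to 0.0981, negative without OL+EV replicate 1 and, at -0.00142, without OC replicate 2, and BUB1B -0.0348 without OL+EV replicate 1. The cause was not tested. Replicate numbers are shared between groups but same-numbered libraries did not deviate together (r from -0.315 to 0.0358 in 9 pairs). With a replicate block 36 genes fell in OL+EV, CENPP being lost, 38 fell in OC, and 11 were higher and 7 lower in OC against OL+EV.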
